A study of Homo sapiens with 40 samples.

Results

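The late ligand-opened regions of BT474 cells were the stretches of chromatin that carried a peak 12 and 24 h after ligand but, for the most part, neither in vehicle-treated cells of the same times nor 1 h after ligand. They were chosen from the peak lists alone. The peaks of all 40 libraries on chromosomes 1 to 22 and X were merged wherever they overlapped by at least 1 bp, which gave 76603 regions. A region was taken if it had a peak in 7 or more of the 8 late ligand libraries of BT474, in 1 or fewer of the 4 late control libraries and in 1 or fewer of the 4 libraries treated with ligand for 1 h. This left 781 of the 76603 regions, called members in what follows. The peaks in these 16 libraries are therefore given as a description. Tests were made only on libraries or differences that the choice did not use directly.

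Accessibility was measured by ATAC-seq, in which a transposase cuts and tags open chromatin, and each library was represented by a list of peaks called in that library alone. BT474, an established line from a breast ductal carcinoma, overexpresses HER2 and responds to the antibody trastuzumab. BT474R is a clone of it that resists the antibody, so the resistant state was represented by 1 clone. All cells were serum-starved and then received epidermal growth factor (EGF, which binds EGFR), heregulin (HRG, which binds HER3 and HER4) or vehicle, called control, for 1, 12 or 24 h. Untreated cells at baseline completed the 20 groups of 2 libraries each. Per the study's methods each treatment was done in duplicate, without saying whether the duplicates were set up on separate days or passages. The p-values therefore reach no further than duplicate treatments of these lines. The BT474R tests pooled both ligands and both late times, so the spread in them also holds differences between ligands and times. The lists held 32479 to 56846 peaks and no read totals. Depth was therefore unknown, and a missing peak means that none was called there, which does not show closed chromatin. The promoters of all 10 luminal epithelial markers examined, among them KRT8, EPCAM, GATA3 and ERBB2, had a peak in all 40 libraries, and those of 4 leukocyte markers had none in any. Of the other markers examined, the promoters of KRT14, COL1A2, PDGFRA and PECAM1 had no peak in any library, those of COL1A1 and CDH5 had one in all 40, KRT5 in 21 and TP63 in 35.

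EGF and HRG signal through the ERBB receptors to the RAS-ERK and PI3K-AKT pathways. ERK activity raises the amount and the activity of AP-1, a dimer of FOS and JUN proteins that binds DNA at enhancers, which are regulatory elements away from gene starts, and helps to keep them accessible. C/EBP proteins belong to a related family of dimeric factors, and a C/EBP protein can also pair with an ATF protein on a composite site. Part of the response to a ligand appears within an hour, while another part appears only after new proteins have been made.

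Sequences of 6 members are printed to show what such regions look like, as the 200 bp around the summit on the plus strand of hg38. Here and below, the summit of a region is that of the peak ranked highest within its list over all 40 libraries. It can therefore come from a BT474R library. The first 4 hold a match to the AP-1 letters TGANTCA, in capitals, searched on both strands. SMPDL3A, the distal region and ATP2A3 had a peak in every late ligand but no late control library of BT474R, and none passed after adjustment. ATP2A3 also had a peak in every baseline and 1 h control library of BT474R. The region near NFKBIA was among the strongest members in BT474.
SMPDL3A intron chr6:122798237-122798436: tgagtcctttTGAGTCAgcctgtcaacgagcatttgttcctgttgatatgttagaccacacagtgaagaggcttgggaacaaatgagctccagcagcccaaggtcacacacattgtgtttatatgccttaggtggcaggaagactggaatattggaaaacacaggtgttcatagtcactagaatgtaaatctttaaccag
distal chromosome 2 region chr2:116719904-116720103: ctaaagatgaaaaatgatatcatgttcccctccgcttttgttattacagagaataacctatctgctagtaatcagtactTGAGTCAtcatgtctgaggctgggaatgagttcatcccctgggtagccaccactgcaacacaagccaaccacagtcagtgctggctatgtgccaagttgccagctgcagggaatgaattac
ATP2A3 intron chr17:3954811-3955010: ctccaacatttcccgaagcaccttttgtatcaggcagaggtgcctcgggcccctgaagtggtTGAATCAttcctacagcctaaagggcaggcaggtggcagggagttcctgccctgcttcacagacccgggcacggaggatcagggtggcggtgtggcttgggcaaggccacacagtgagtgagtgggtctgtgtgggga
region near NFKBIA chr14:35391147-35391346: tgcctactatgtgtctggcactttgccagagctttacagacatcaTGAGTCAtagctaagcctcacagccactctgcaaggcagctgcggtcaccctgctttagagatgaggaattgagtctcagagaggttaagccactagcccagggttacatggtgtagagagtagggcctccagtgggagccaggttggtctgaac
The SMPDL3A match lies in an intron of this phosphodiesterase gene, and the peak summit lies 9079 bp inside the gene. The distal region is intergenic, and no protein-coding start lies within 100 kb of it. The match in ATP2A3, a calcium pump gene, is intronic and has A at its variable place, and that at NFKBIA, the gene of an NF-kB inhibitor, is intergenic. The next sequences, in introns of ABTB2 and GHR, carry the C/EBP-ATF composite letters TGATGCAA, again in capitals and on either strand, and were picked after their values were seen.
ABTB2 intron chr11:34345242-34345441: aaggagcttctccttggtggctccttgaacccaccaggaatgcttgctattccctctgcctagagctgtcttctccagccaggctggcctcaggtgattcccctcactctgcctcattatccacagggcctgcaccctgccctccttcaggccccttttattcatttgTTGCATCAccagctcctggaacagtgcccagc
GHR intron chr5:42572459-42572658: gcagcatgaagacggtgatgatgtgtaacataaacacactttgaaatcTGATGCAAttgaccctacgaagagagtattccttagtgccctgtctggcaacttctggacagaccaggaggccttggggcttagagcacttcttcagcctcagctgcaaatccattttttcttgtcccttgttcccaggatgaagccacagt

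In the libraries used for the choice, the members formed a late and ligand-dependent set by construction. In BT474, 93.5% and 95.8% of members had a peak in the HRG libraries at 12 h and 95.8% and 95.01% in those at 24 h. The EGF libraries held 78.4% and 96.9% at 12 h and 95.8% and 98.3% at 24 h. The control libraries held 4.48% and 7.30% at 12 h and 18.2% and 6.53% at 24 h. At 1 h, HRG gave 3.07% and 7.68% and EGF 14.9% and 4.48%. Among all merged regions the share with a peak was 59.0% to 70.4% in every BT474 library. The library that most often lacked the peak was EGF at 12 h, replicate 1, which missed 169 members, and the control library that most often had one was control at 24 h, replicate 1, with 142. A peak was listed in all 8 late ligand libraries for 386 members and in 7 for 395. Of all members, 154 met the strictest form, with 8 late ligand, 0 late control and 0 early ligand libraries.

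**Figure D1:**
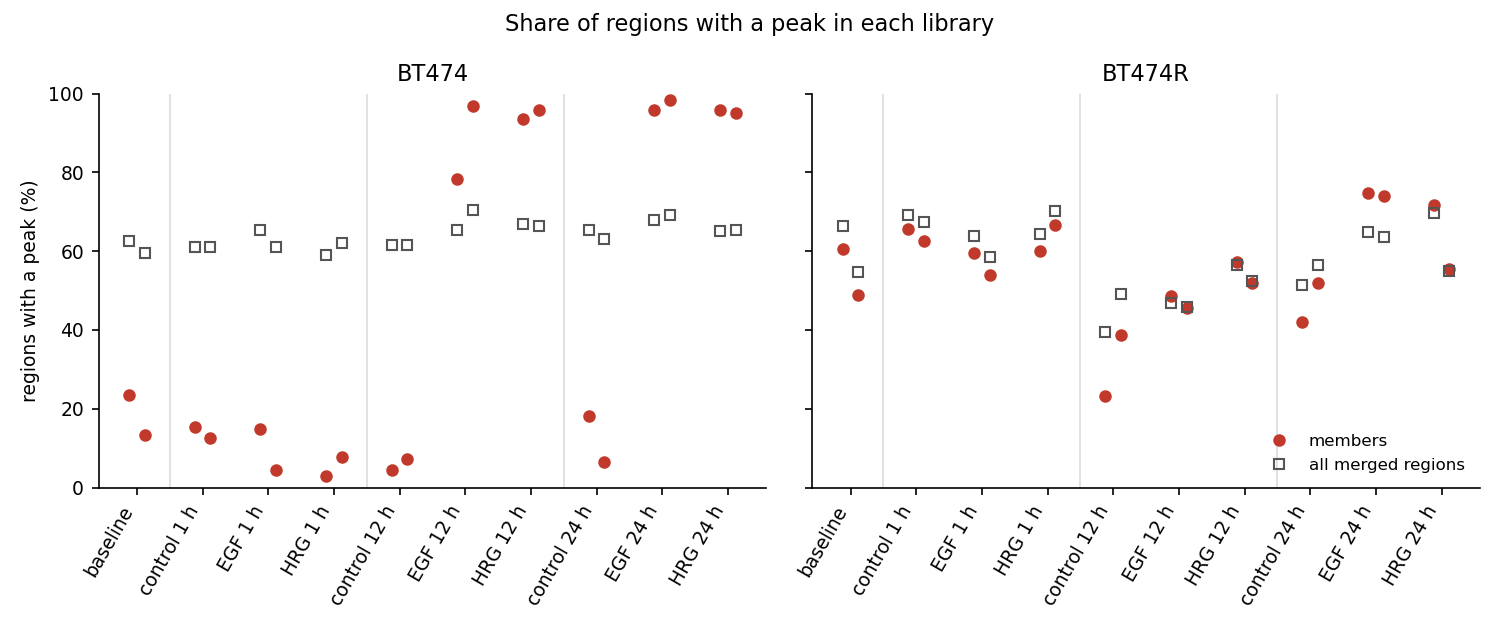
Share of the 781 members (filled points) and of all merged regions (open squares) with a peak in each library, in percent on the vertical axis, by line, treatment and time, with the 2 libraries of a group side by side. The late ligand libraries of BT474 lie between 78.4% and 98.3% and its late controls between 4.48% and 18.2%, as the choice required, while the BT474R libraries lie between 23.2% and 74.6%.

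The members were weak peaks. The score that the authors' peak caller gave each peak, an area under the curve of significance, had a lowest listed value of 200, and the median score of the members in the late ligand lists was 286, against 598 for all regions. A score under 400 was held by 88.5% of the members' peaks. On a scale of rank within a list, where 100 is the strongest peak, the median member stood at 17.2, and the library medians ran from 10.3 to 20.96. A region that passes this choice therefore moved from unlisted to listed in the lower part of the lists. When only peaks with a score of at least 400 were used, the same rule chose 602 regions, of which 11 overlapped the 781, so the identity of the members depends on where a list ends.

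At the edge of the rule, the 45 members with 7 late ligand, 1 late control and 1 early ligand library had a median rank of 14.5. Just outside it, the 475 regions with 6 of 8 late ligand libraries stood at 11.8, the 287 with a peak in 2 late controls at 16.9 and the 238 with a peak in 2 early ligand libraries at 18.2. The choice was also made on the libraries of 1 replicate number and read in the other. The 383 regions chosen on replicate 1 had a peak in 82.8% to 92.7% of cases in the late ligand libraries of replicate 2, against 13.6% and 14.1% in its late controls. The 760 chosen on replicate 2 had one in 59.3% to 84.5% in replicate 1, against 10.5% and 23.8%.

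The strongest of the 154 strictest members lay at genes of different kinds. The first was a region 61655 bp from the start of RDH10, which encodes a retinol dehydrogenase. The summit of this region lay 1 bp from another annotated transcript start. Its rank ran from 33.5 over a median of 56.9 to 65.1 in the late ligand libraries. The intronic region in ONECUT2, a homeobox transcription factor gene, ranked 32.2, 43.7 and 49.2 (lowest, median and highest), and that in DYSF, which encodes the membrane repair protein dysferlin, 13.3, 41.8 and 57.1. The region 12532 bp downstream of the NFKBIA start ranked 24.8, 35.2 and 43.4. These 4 had no peak in a late control or an early ligand library of BT474, which their choice fixed. The distal region on chromosome 2, which also had a peak in 1 early ligand library, ranked 32.3, 39.96 and 45.8 and had the narrowest range of the 5.

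The members lay mostly away from gene starts. They had a median width of 466 bp, against 523 bp for all regions, and a median GC content of 48.5% against 51.5%. The median distance to an annotated transcript start was 8794 bp against 5226 bp. A start lay within 1 kb of 66 members, which was 8.45% (95% Wilson interval 6.70% to 10.6%), against 27.7% of all regions. The share was 17.2% in 3990 regions that were equally often open in the same 16 libraries (a peak in 7 to 10 of them) but were not members. Introns held 421 members (53.9%) and intergenic sequence 259 (33.2%). Coding exons held 5, UTRs 14 and other exons 16. Per 1000 merged regions, chromosome 8 held 13.9 members and chromosome 13 held 4.08, the highest and lowest of the chromosomes.

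Of the 16 motifs listed and searched in the 200 bp around the summit on both strands, AP-1 was the one found most often. The letters TGANTCA were in 242 members, or 31.0% (95% Wilson interval 27.8% to 34.3%), against 16.4% of all regions and 16.5% of the equally often open regions. The share was 30.1% in 604 regions that opened early, with a peak in 3 or more of the early ligand libraries, none in the 1 h controls and few later, and 5.49% in 346 regions that closed late, with a peak in 3 or more late controls and 1 or fewer late ligand libraries. The central base of the match was C or G in 198 members and A or T in 50. The C/EBP letters TTGCNNAA were in 152 members (19.5%), against 11.0% of all regions, 9.27% of the early and 10.1% of the late closed regions. Of these, 113 had no AP-1 match and 39 had both. The composite letters TGATGCAA, which were searched after the first results had been seen, were in 19 members (2.43%), against 0.762% of all regions, and none of the 19 also had an AP-1 match. Of the other motifs, the TEAD letters GGAATG were in 12.9% of members and 13.9% of all regions. The forkhead letters TGTTTAC were in 9.35% and 8.57%. The GATA factors, searched as AGATAA, had a match in 8.32% and 9.01%, and RUNX, searched as TGTGGTT, in 6.27% and 4.44%. Letters typical of promoters and insulators were rarer in members, with SP/KLF (GGGCGG) in 3.33% against 18.5%. The CTCF core, AGGGGGC, was in 1.66% against 5.73%. None of the 16 was found in 189 members. A match is a run of letters and does not show that a factor was bound.

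**Figure D2:**
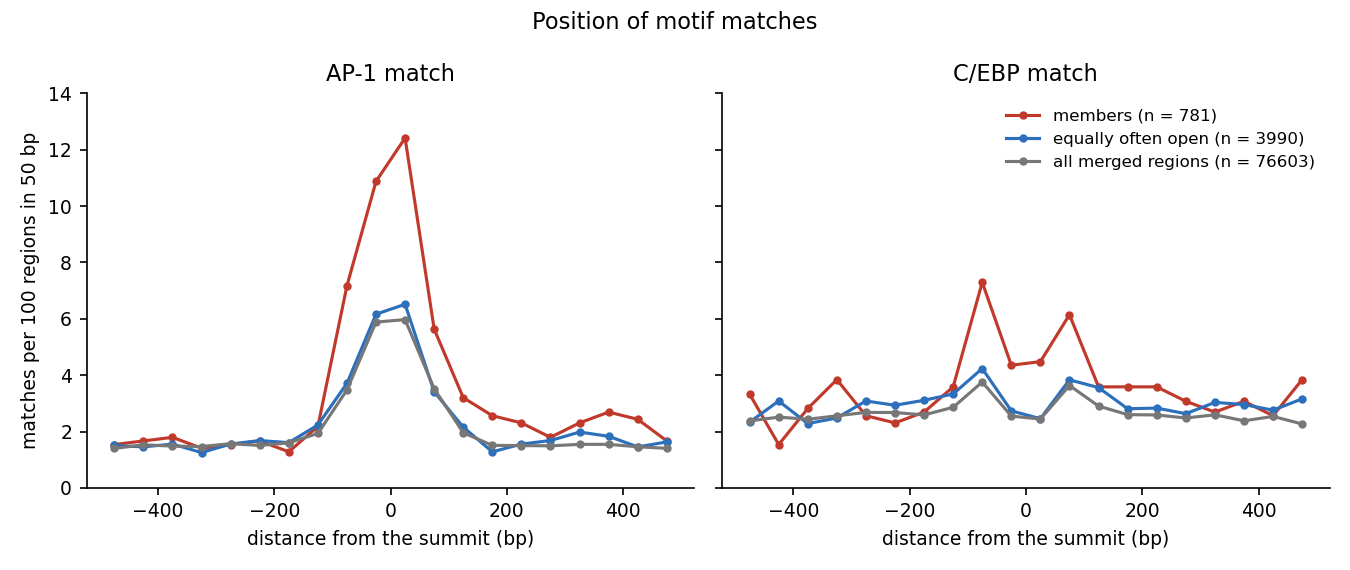
Matches per 100 regions (vertical axis) to the AP-1 and C/EBP letters in bins of 50 bp by distance from the peak summit (horizontal axis, bp), for the members, the equally often open regions and all merged regions. AP-1 matches in the members peak in the bins beside the summit, at 10.9 and 12.4 per 100 regions, against 5.97 or less in all regions there.

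The matches were not spread evenly over the window. AP-1 matches stood at 10.9 and 12.4 per 100 members in the 50 bp bins left and right of the summit, against 6.17 and 6.52 per 100 in the equally often open regions. C/EBP matches were most frequent one bin further out, at 7.30 and 6.15 per 100 members against 4.24 and 3.83.

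A protein-coding start lay within 100 kb of 585 members, which were assigned to 533 genes. Most of these genes (487) had 1 member, 42 had 2, and 4 had 3 or more, among them IRF2BPL with 4 and GPR157 and KCNMA1 with 3 each. By the gene lists used here, which are short and hold few members each, the 18 genes of lipid metabolism had 7 members among their 197 assigned regions, or 35.5 per 1000, against 9.27 per 1000 for all genes. The nearest genes of these members were CPT1A (the carnitine transferase that admits long-chain fatty acids to mitochondria, 2 members) and the acyl-CoA synthetases ACSL3 and ACSL4. The others were the phosphatidate phosphatase LPIN1 and the lipid regulators NR1H3 and SREBF1. The ACSL3 and LPIN1 regions lay 55020 and 81075 bp from the gene starts. The region at the NR1H3 start ranked 4.70, 37.4 and 48.7 (lowest, median and highest) and the SREBF1 region 5.31, 26.1 and 40.6.

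The ERBB receptors and ligands had 2 members among 76 regions, 1206 bp upstream of ERBB3, which encodes the HRG receptor HER3, and 99047 bp from AREG, which encodes the EGFR ligand amphiregulin. The ERBB3 region ranked 0.0804, 13.9 and 25.3 in the late ligand libraries and the AREG region 2.36, 24.1 and 37.7 in the 7 that had it. ERK feedback inhibitors had 2 members among 176 regions, both at DUSP6, which encodes a phosphatase of ERK. Immediate early genes had 2 (IER3 and IER5), inflammatory and NF-kB genes 2 (CXCR4, a chemokine receptor gene, and NFKBIA), and luminal genes 2 (GRHL2 and SPDEF, epithelial transcription factor genes). The cell cycle list had 1 (CCNE2, cyclin E2). RPS6KA1 (the ERK-activated kinase RSK1), PIK3R3 (a PI3K regulatory subunit) and MMP1 (interstitial collagenase) were the nearest gene of 1 each. So were TPM1 (a tropomyosin), CA12 (a carbonic anhydrase) and TGFBR2 (a TGF-beta receptor). The PIK3R3, TPM1 and TGFBR2 regions lay 92948, 83929 and 77456 bp from the gene starts. The 12 genes of AP-1 subunits had no member among 71 regions.

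Before ligand, most members had no peak in BT474. In the baseline libraries 23.6% and 13.4% of members had one, and in the 1 h control libraries 15.4% and 12.5%. No peak was listed in any of these 4 libraries for 496 members and in all 4 for 22. These libraries were not used by the choice, and with 2 libraries against 2 an exact permutation test cannot go below p = 0.3333. In BT474R the members were more often open without ligand. The baseline libraries held 60.4% and 48.8% of members and the 1 h control libraries 65.6% and 62.6%, all above every untreated BT474 library. Of all merged regions, 64.5% had a peak in these BT474R libraries on average and 61.1% in the BT474 ones. The choice of members favours regions with few peaks in BT474 without late ligand and so leans towards this difference between the lines.

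Across all 20 BT474R lists, 116 members (14.9%) had a peak in none, 167 (21.4%) in all 20 and 329 (42.1%) in 16 or more. Of all merged regions, 15.8% had a peak in none, 36.9% in all 20 and 48.0% in 16 or more. Of the equally often open regions, 38.6% had a peak in none, 7.77% in all 20 and 17.4% in 16 or more, so the members lay between these sets at the upper end. The AP-1 share was lower where more BT474R lists had the peak, given as a description. It was 39.2% of the 240 members with 0 to 4 BT474R lists. Of the 212 with 5 to 15 lists it was 30.2%, and of the 329 with 16 to 20 it was 25.5%. The C/EBP share was 15.4%, 21.2% and 21.3%. The summits used here could come from BT474R peaks, and the part of this in the shares was not tested. The intronic region at CPT1A, 4016 bp inside the gene, had a peak in all 20 BT474R lists and ranked 82.8 to 92.7 in the late ligand libraries of BT474R, against 6.03 to 42.5 in those of BT474.

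**Figure D3:**
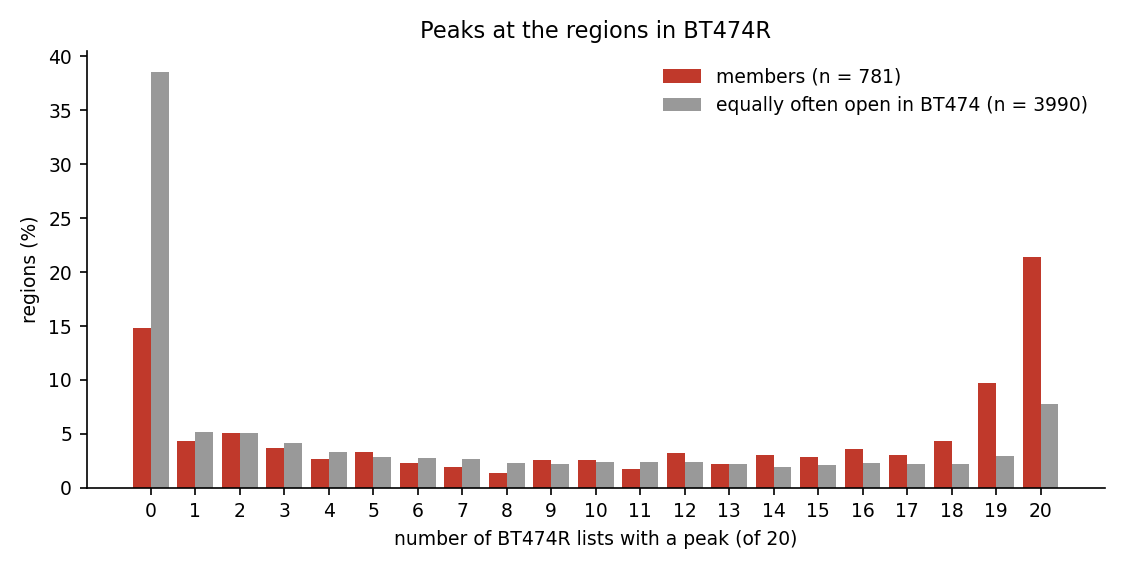
Percent of regions (vertical axis) with a peak in each number of the 20 BT474R lists (horizontal axis), for the 781 members and the 3990 equally often open regions of BT474. Of the members 116 lie at no list and 167 at all 20, and 42.1% of them, 17.4% of the equally often open regions and 48.0% of all merged regions (not drawn) lie at 16 or more.

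The late ligand and control libraries of BT474R, which the choice did not use, were compared. The question was whether the same regions were more often listed with ligand than with control in the resistant line. The control libraries held 23.2% and 38.7% of members at 12 h and 42.1% and 51.9% at 24 h. The EGF libraries held 48.7% and 45.6% at 12 h and 74.6% and 73.9% at 24 h, and the HRG libraries 57.2% and 51.9% at 12 h and 71.8% and 55.4% at 24 h. Both libraries of each ligand lay above both controls of the same time. The lists differ in length, however, with 32479 to 45799 peaks in these controls and 37476 to 55289 in these ligand libraries, and the part of list length in the result was not tested. On average the late controls were open at 39.0% of members and 49.1% of all regions. The EGF libraries were open at 60.7% and 55.3%, and the HRG libraries at 59.1% and 58.4%. The baseline and 1 h control libraries of BT474R were open at 59.35% of members and 64.5% of all regions. For the members, the late controls thus stood below this level, at 30.9% on average at 12 h and 47.0% at 24 h. EGF stood below it at 12 h (47.1%) and above it at 24 h (74.3%), so only its mean over both times lay near it. HRG had 54.55% at 12 h and 63.6% at 24 h.

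Per region, presence of a peak was compared between the 8 late ligand and the 4 late control libraries by Fisher's exact test (two-sided). A region called gained was listed more often with late ligand than in these controls. It may have had a peak at baseline or in the 1 h controls. Of the 781 members, 169 were open in all 12 libraries, 144 in none, and 210 could reach p below 0.05. Of these 210, 46 were gained with ligand at an unadjusted p below 0.05, against 9.08% of the 12850 testable regions of the whole series, and 0 were lost, against 0.132%. After Benjamini-Hochberg adjustment over all testable regions, 0 members passed in either direction, and so did 0% of all regions. The clearest pattern, a peak in 8 of 8 ligand and 0 of 4 control libraries, was held by 13 members (Fisher's exact p = 0.00202, adjusted p = 0.0719). The AP-1 letters were in 31 of the 46 gained members (67.4%), and in 35.2% of the members that could be tested and 58.0% of all gained regions. The count of gained members depended on single controls: it was 27 without replicate 1 of the 12 h control, 30 without its replicate 2 and 29 without replicate 1 of the 24 h control.

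Presence cannot show a change in a region that is open in both states, so the peak scores were also compared, a test added after the data were seen. The summed log2 score of each region, centred on regions open in all 40 libraries, was ranked over the 12 libraries, a missing peak ranking lowest. Exact permutation of the 12 libraries gave two-sided p-values with a smallest value of 0.00404. Of the 637 members with a peak in at least 1 library, 207 had a higher score with ligand at p below 0.05 (11.1% of all 58272 regions did), and 2 a lower one (7.56%). In 82 members every ligand library lay above every control (3.78% of all regions), and in 0 below (1.35%). After adjustment 0 members and 0% of all regions passed, the smallest adjusted p being 0.0783. Of the 169 members with a peak in all 12 libraries, 62 (36.7%) were higher and 0 lower. Of all 28397 such regions, 10.9% were higher and 13.4% lower. The part of library depth in these scores was not tested. The median difference was 0.20 on the log2 scale for these members and -0.05 for all such regions. The AP-1 letters were in 43.5% of the 207 higher members and 25.1% of the 430 others tested, and in 47.3% of all higher and 17.1% of all tested regions.

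**Figure D4:**
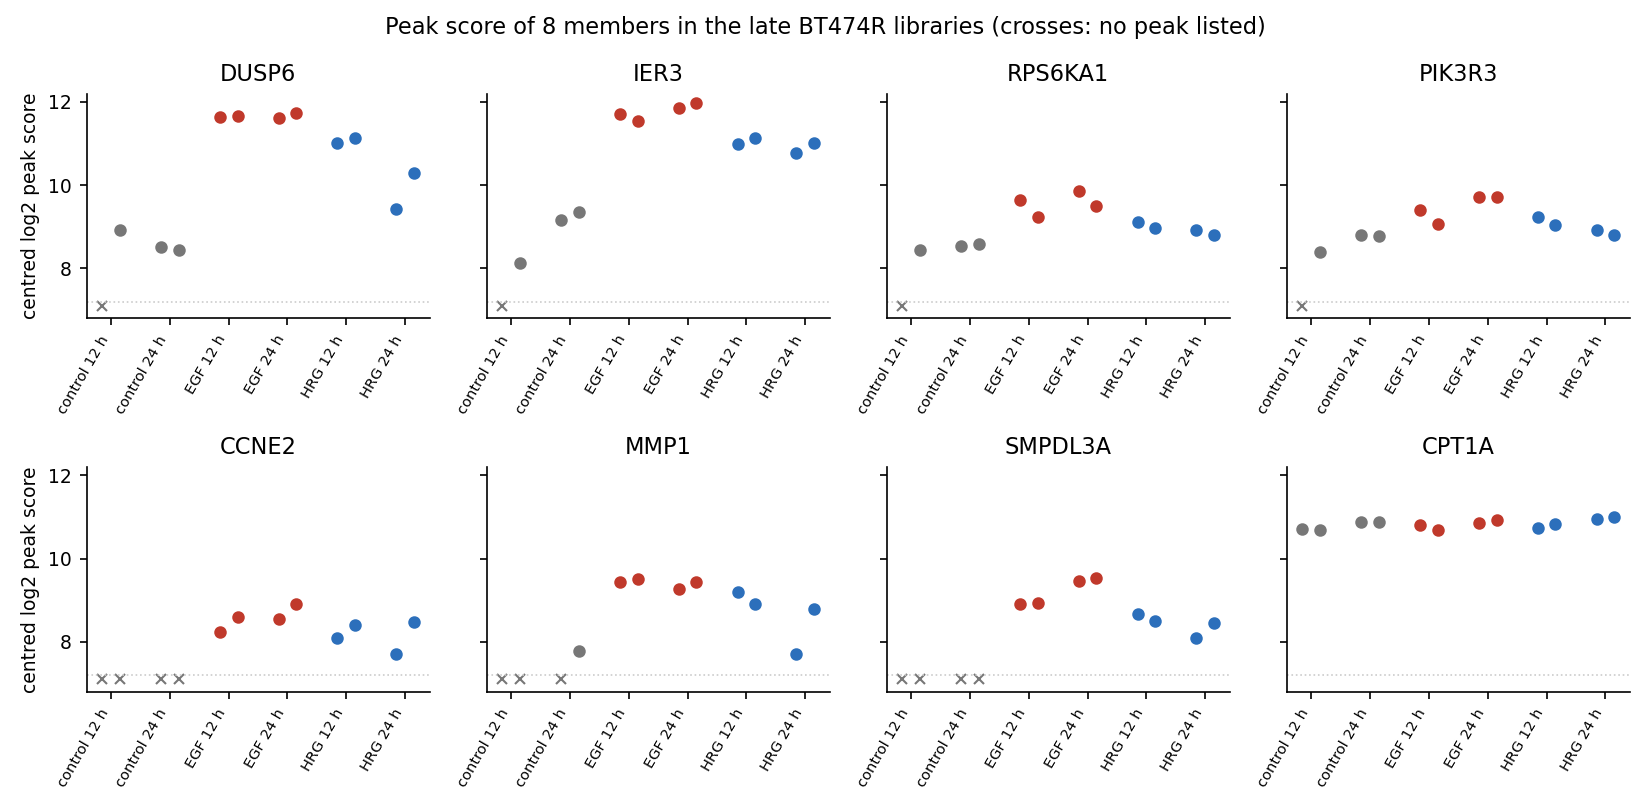
Centred log2 peak score (vertical axis) of 8 members, named by nearest gene, in the 12 late BT474R libraries, by treatment and time. Points are libraries and crosses below the dotted line mark libraries with no listed peak. At DUSP6 (4704 bp from the start) and IER3 all 8 ligand libraries lie above the controls, and at CPT1A (4016 bp) the groups overlap.

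The members at listed genes are given next, and none of them passed after adjustment in BT474R. At DUSP6, the region 4704 bp from its start (chr12:89345480-89347900) had scores, on the centred log2 scale, of 9.42 to 11.72 with a median of 11.38 in the 8 ligand libraries, and of 8.44 to 8.93 in 3 of 4 controls, with none listed in the fourth. The groups did not overlap (exact permutation p = 0.00404, adjusted p = 0.0783). All 4 EGF libraries, at 11.61 to 11.72, lay above all 4 HRG libraries, of which the lowest was from 24 h and the highest stood at 11.14, and this difference was not tested. The other DUSP6 member, 88925 bp from the start, showed no such separation, with 8.13 to 8.83 and a median of 8.48 in 7 ligand libraries and 8.52 to 8.79 in 3 controls (exact permutation p = 0.844). At IER3, whose product is an early response protein linked to cell survival, the region 4511 bp upstream ran from 10.76 to 11.97 with a median of 11.35 in the ligand libraries and from 8.12 to 9.35 in 3 of 4 controls (exact permutation p = 0.00404). At RPS6KA1, 1048 bp upstream of its start, the values were 8.80, 9.17 and 9.87 (lowest, median and highest) against 8.44 to 8.59 in 3 controls (exact permutation p = 0.00404), and again the groups did not overlap. In the region 92948 bp from PIK3R3, they were 8.80, 9.15 and 9.72 against 8.40 to 8.81 in 3 controls (exact permutation p = 0.00808). The groups met at their ends. By rank, the PIK3R3 region stood at 36.0 to 52.4 in BT474R baseline and 1 h controls, within its late ligand range, 33.8 to 67.9. RPS6KA1 had 46.2 and 45.0 in the 1 h controls, within 35.7 to 71.65, but 27.8 and 6.79 at baseline. The DUSP6 region at 4704 bp had 52.1 to 72.5 in these libraries, against 63.25 to 98.3. At IER3 they had 29.3 to 65.6, below the lowest late ligand rank, 78.9. The part of low late controls in these separations was not tested.

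Some members were absent from every late BT474R control. The region at SMPDL3A ran from 8.08 to 9.53, with a median of 8.79, and that at CCNE2, 17705 bp upstream of its start, from 7.70 to 8.91, with a median of 8.45, and neither had a peak in a control (exact permutation p = 0.00404 for each). The GRHL2 region had a peak in 7 of 8 late ligand and 0 of 4 late control libraries (Fisher's exact p = 0.0101). So did the TRIB3 promoter, 586 bp inside the gene of a stress-induced pseudokinase, which has an AP-1 match. The GRHL2 and TRIB3 regions also had a peak in both 1 h control libraries of BT474R. MMP1 was higher in 7 of 8 ligand libraries than its lone late control peak, and both 1 h controls also had a peak. Its late values ran from 7.705 to 9.503 with a median of 9.24, against 7.78 in 1 of 4 late controls (exact permutation p = 0.00808). Of the members with a peak in all 4 controls, those at GSDMA, which encodes the pore-forming gasdermin A, and SIGLEC15, which encodes a sialic acid-binding receptor, differed most. Their difference was 1.19 on the log2 scale for each, with ligand libraries at 8.97 to 10.53 and controls at 8.29 to 8.86 for GSDMA. These 2 were picked after their values were seen.

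Other listed members did not pass in BT474R. The ERBB3 region had scores of 9.43, 9.61 and 9.73 (lowest, median and highest) with ligand and 9.23 to 9.79 in the controls (exact permutation p = 0.808). The intronic CPT1A region had 10.69, 10.84 and 11.00 against 10.68 to 10.87 (exact permutation p = 0.461), and the NFKBIA region 8.69, 9.12 and 10.27 against 8.72 to 9.27 in 3 controls (exact permutation p = 0.368). The regions at AREG, TGFBR2, SPDEF and CA12 had no peak in any of the 12 libraries. Of the 7 members at lipid genes, none reached p below 0.05, and all had a peak in at least 1 control.

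Within BT474, the choice treated both ligands and both late times alike. These differences were tested for the 386 members with a peak in all 8 late ligand libraries. The limit on peaks 1 h after ligand can favour regions still rising at 12 h, so the time difference is not independent of the choice. The log2 peak scores, centred per library, were fitted with limma over all 42894 regions with such peaks. EGF and HRG libraries did not differ past an adjusted p of 0.05 at any member, nor at any region (0% of all). At an unadjusted p below 0.05, 10 members were higher after EGF (3.99% of all regions were) and 20 lower (1.13%). The median difference was -0.03, with 164 members above 0 and 222 below. These values depended on the scaling and on 1 library: after quantile normalization 7 members were higher and 49 lower (2.74% and 2.19% of all regions) with a median of -0.12, and without replicate 1 of EGF at 12 h the median was 0.03. The largest was at OBP2B, a lipocalin gene, 996 bp upstream of the start, where EGF libraries had 7.76 and 7.71 at 12 h and 8.88 and 8.56 at 24 h and HRG libraries 8.69 and 8.55 at 12 h and 9.45 and 9.04 at 24 h. The difference was -0.70 ± 0.13 (SE, limma adjusted p = 0.959). At the CPT1A promoter it was -0.51 ± 0.09 (SE, limma adjusted p = 0.959), and every EGF library lay below every HRG library. A p that misses the threshold does not show that the ligands act alike.

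Most members had a higher score at 24 h than at 12 h, a direction towards which the limit at 1 h can lean. In the BT474 controls the mean share of members with a peak was 5.89% at 12 h and 12.4% at 24 h. The part of this rise in the time difference was not tested. No member and 0% of all regions passed an adjusted p of 0.05 in limma. At an unadjusted p below 0.05, 94 members were higher at 24 h, or 24.4% (5.62% of all regions were), and 5 were lower (3.68%). Of the 386, 317 lay above 0 and 69 below, with a median difference of 0.18 (quartiles 0.05 and 0.34), against 0.01 for all regions. At SH3RF3, which encodes a ubiquitin ligase, the intronic region 46319 bp inside the gene had HRG values of 7.63 and 7.89 at 12 h and 9.19 and 9.10 at 24 h, and EGF values of 7.67 and 8.51 at 12 h and 9.46 and 9.15 at 24 h. All 24 h libraries lay above all 12 h ones, and the difference was 1.30 ± 0.18 (SE, limma adjusted p = 0.229). The region 137064 bp from CEBPB, which encodes a C/EBP protein, had 7.60 to 8.08 at 12 h and 8.54 to 8.72 at 24 h, a difference of 0.86 ± 0.11 (SE, limma adjusted p = 0.229). Among members lower at 24 h, the smallest p was at SYNPO, which encodes the actin-associated protein synaptopodin, with -0.32 ± 0.08 (SE, limma adjusted p = 0.312).

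**Figure D5:**
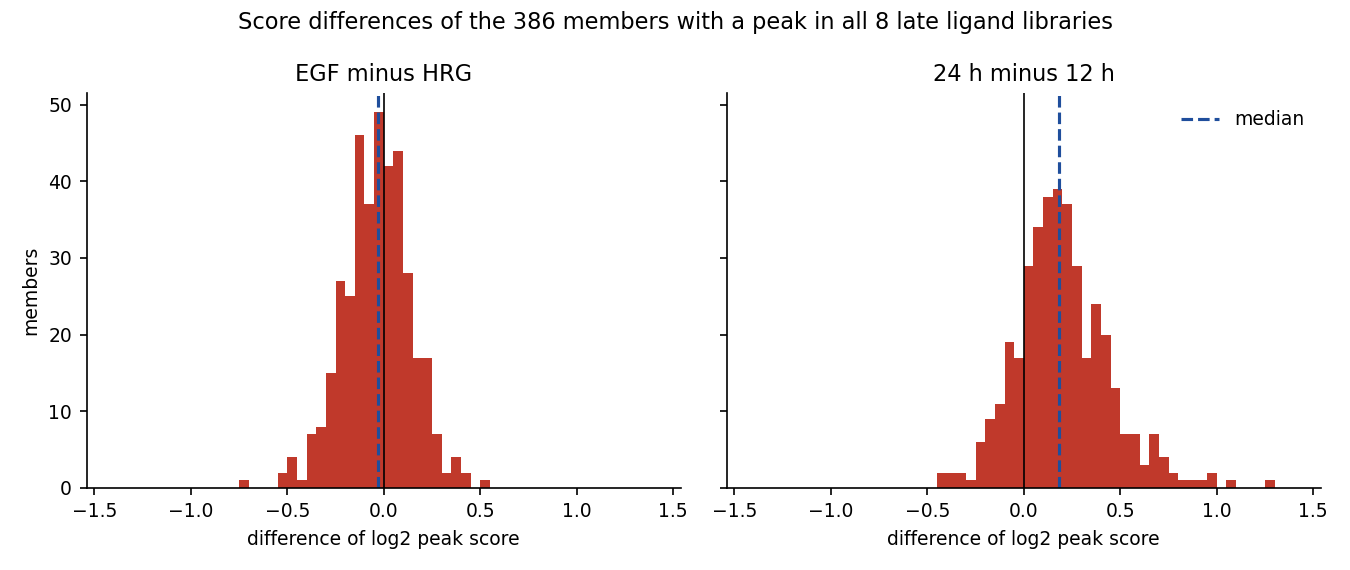
Histograms of the difference in log2 peak score for the 386 members with a peak in all 8 late ligand libraries of BT474, EGF minus HRG on the left and 24 h minus 12 h on the right, with the number of members on the vertical axis and a dashed line at the median. The left median is -0.03 and the right one 0.18, where 317 members lie above 0.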

How the data were processed

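The authors trimmed adapters (Trim Galore 0.6.6 per the submitters' notes), mapped reads to hg38 (BBMap), sorted alignments (samtools) and ran Genrich on each library, leaving out mitochondrial reads and ENCODE blacklisted regions. Replicates were not pooled, and the options of Genrich were not given in the sources used here. The deposited score of a peak is the area under its curve of significance, and the lowest was 200 in all 40 lists. The authors also deposited −log10 p and q values, which were not tested. Scores depend on the depth of their library. Read counts were not analysed here.

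All 1971877 peaks on chromosomes 1 to 22 and X were merged, 1196 on other sequences were left out, and none reached past a chromosome end. Genes, UTRs and starts came from GENCODE 44 and sequence from the hg38 reference. Members, gene lists and tests were chosen with earlier results of these data known, and some tests were added after these data were seen. Members named were those near listed genes, the strongest of the strictest, those with the smallest Fisher p in BT474R, genes with 3 or more members, promoter members, and the smallest limma p in each direction. Groups came from the labels, and the statistics were tested on simulated data. R 4.3.3 with limma 3.58.1 and Python 3.11.15 with statsmodels 0.14.6, scipy 1.17.1, pandas 2.3.3, numpy 2.4.6, pysam 0.24.0 and matplotlib 3.10.9 were used. Alternatives were score, rank, trimming, coverage, stricter and looser rules, window, promoter distance, single ligands, time strata, a replicate block and leaving out each library. Some sequences and gene results are not reported here.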

Additional observations from a re-analysis of the deposited data

How the results depend on the processing

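No called value changed direction. The median EGF minus HRG difference, -0.03 and not called, was -0.10 to 0.03 when 1 library was left out, above 0 without replicate 1 of EGF at 12 h or replicate 2 of HRG at 24 h, and -0.12 after quantile normalization. With peaks of score 400 or more, the AP-1 share was 35.5% and the promoter share 10.8%, and 38 of the 602 regions were gained in BT474R. Equal numbers of top peaks gave 306 regions, of which 8 overlapped a member, with 20 gained and 12.1% at promoters. Trimmed peaks gave 10.7% at promoters, and the strictest rule 154 regions, 6 gained and 11.7%. Asking for 6 of 8 lists gave 1256 regions. The AP-1 share was 21% in 100 bp and 39.7% in 500 bp, and 25.6% of members lay within 3 kb of a start. EGF alone gave 29 gained and 1 lost of 64 testable members (19.9% and 3.46% of all testable regions), and HRG alone 19 gained of 46 (25.02%). By score, HRG alone gave 104 higher and 0 lower of 574 members tested (5.59% and 3.10% of all regions tested). Ranks by percentile gave 0 lower and ranks from the strongest peak 5 lower. Over all regions these rank scales gave 8370 higher and 315 lower, and 5957 and 4790, against 6473 and 4408. The causes of these changes were not tested.

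Leaving out 1 library at a time gave 846 to 1017 members, 27 to 55 gained and 0 to 1 lost. By score it gave 163 to 207 higher and 2 to 4 lower (4 without replicate 1 of the 12 or of the 24 h control). Of all regions tested by score, 8.645% to 11.7% were higher and 5.79% to 7.68% lower. In limma 0 members passed the threshold for ligand or time.

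Replicate numbers were not treated as pairs. In the 12 and 24 h lists of BT474R, correlations of same-numbered deviations were -0.0649 to 0.144, above 0.1 in 3 of 15 group pairs. In the late ligand lists of BT474 they were -0.0254 to 0.213, above 0.1 in 1 of 6. This does not exclude a weak pairing. With a replicate block, 50 members were gained and 0 lost (11.04% and 0.217% of all testable regions). In score 188 were higher and 2 lower (9.96% and 6.27% of all regions tested). In limma 0 passed for ligand or time. The median 24 h difference was 0.12 to 0.25 when 1 library was left out and 0.15 after quantile normalization.

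Limits: lists end at a score of 200, where the members lie, and depth is unknown, so a peak that is absent and one that is weak cannot be told apart there. The members varied more between replicates (median SD 0.25) than all regions (0.15). BT474R is 1 clone.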
